A study of Homo sapiens with 6 samples.

Results

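The cluster described here consists of 40 zinc finger genes from a stretch of the long arm of human chromosome 19, out of 58302 genes in the count table. It is named here after band 19q13.41. The symbols of the members run from ZNF649 to ZNF331, and in GENCODE 44 on GRCh38 they span chr19:51889235-53580269, a stretch of 1.69 Mb. They were taken as the zinc finger genes around ZNF616 to ZNF813, a stretch that drew attention because ZNF468 and ZNF28 were seen to be lower after MCM7 siRNA in these same libraries. The fold changes of the members in this comparison are therefore a description of what the choice was made on, and no test of the cluster is drawn from them. RNA was sequenced from hTert 1BR3 cells, forearm skin fibroblasts immortalised with telomerase, after transfection with non-targeting siRNAs (control siRNA, 3 libraries) or with a pool of siRNAs for MCM7 (MCM7 siRNA, 3 libraries). Both groups were transfected while cycling and then serum-starved to induce cilia. All libraries come from 1 cell line, and nothing in the labels tells if replicates were grown as separate cultures, so errors and p-values measure the spread between these libraries, which may be technical. The comparison asks how RNA levels differ in starved cells that lack MCM7, a subunit of the replicative helicase.

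Most genes of this kind encode a KRAB box followed by a row of C2H2 zinc fingers. The fingers read DNA, often in transposable elements, and the KRAB box recruits TRIM28, which in turn brings SETDB1, HP1 proteins and other chromatin factors that silence the bound site. Families of these genes arose by tandem duplication and sit in clusters, so neighbours resemble each other in sequence. Of the 40 members, 37 had a protein-coding transcript and 3 were annotated as transcribed pseudogenes (ZNF137P, ZNF321P and ZNF702P). A KRAB box was found by sequence pattern in 36 of the 37 proteins, the exception being ZNF83, and the proteins held between 7 and 26 zinc fingers with a median of 13.

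The sequences around the transcription start were examined because they are what neighbouring genes of a cluster may share. RefSeq windows (GRCh38.p14) from 250 bases before to 50 bases after the start were matched by symbol for 30 of the 40 members, with the first listed window taken for the 8 that had several. Windows of 4 genes called lower with MCM7 siRNA, namely ZNF468, ZNF761, ZNF813 and ZNF160, are shown with that of ZNF350, which lies towards the edge of the stretch and was not called. Capitals mark the runs AGGCCCCGCC, CCAGGCCTGG and ATCCGCTTCC on either strand. ZNF761 (chr19:53431734-53432033, plus strand) and ZNF813 (chr19:53467483-53467782, plus strand) carried all 3 runs, and ZNF468 (chr19:52857570-52857869, minus strand) carried CCAGGCCTGG. ZNF160 (chr19:53103373-53103672, minus strand) and ZNF350 (chr19:51986791-51987090, minus strand) carried none. Not shown are ZNF808, ZNF701, ZNF320 and ZNF845, which carried all 3 runs and were not called.
ZNF468: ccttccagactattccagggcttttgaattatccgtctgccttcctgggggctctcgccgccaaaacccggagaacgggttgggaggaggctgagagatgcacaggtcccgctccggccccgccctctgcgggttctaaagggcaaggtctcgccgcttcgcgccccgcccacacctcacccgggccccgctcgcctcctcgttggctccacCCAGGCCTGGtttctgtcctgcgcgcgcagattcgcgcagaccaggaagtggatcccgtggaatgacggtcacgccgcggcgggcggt
ZNF761: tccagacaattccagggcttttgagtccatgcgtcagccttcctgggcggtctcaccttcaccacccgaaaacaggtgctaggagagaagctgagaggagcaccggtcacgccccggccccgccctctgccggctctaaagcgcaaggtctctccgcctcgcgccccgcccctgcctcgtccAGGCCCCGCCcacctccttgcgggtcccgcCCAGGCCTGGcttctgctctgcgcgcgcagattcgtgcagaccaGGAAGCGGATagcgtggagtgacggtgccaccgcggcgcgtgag
ZNF813: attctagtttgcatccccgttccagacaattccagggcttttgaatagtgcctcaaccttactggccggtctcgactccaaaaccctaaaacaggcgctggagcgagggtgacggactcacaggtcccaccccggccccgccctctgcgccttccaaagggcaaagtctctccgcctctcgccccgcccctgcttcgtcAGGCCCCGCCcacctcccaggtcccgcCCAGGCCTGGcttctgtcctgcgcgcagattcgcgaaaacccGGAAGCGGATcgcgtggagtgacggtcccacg
ZNF160: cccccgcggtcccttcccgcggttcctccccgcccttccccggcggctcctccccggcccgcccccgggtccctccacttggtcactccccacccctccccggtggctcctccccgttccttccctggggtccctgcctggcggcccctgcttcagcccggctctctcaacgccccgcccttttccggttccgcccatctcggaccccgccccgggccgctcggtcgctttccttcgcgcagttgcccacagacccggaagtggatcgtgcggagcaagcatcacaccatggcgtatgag
ZNF350: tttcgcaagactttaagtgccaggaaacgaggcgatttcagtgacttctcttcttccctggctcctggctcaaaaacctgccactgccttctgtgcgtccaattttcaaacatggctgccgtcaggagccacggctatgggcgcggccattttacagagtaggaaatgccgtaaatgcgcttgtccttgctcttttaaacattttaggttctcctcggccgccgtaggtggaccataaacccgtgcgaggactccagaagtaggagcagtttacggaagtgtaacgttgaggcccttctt

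The windows of ZNF468 and ZNF761 were 79.3% identical over their global alignment, and those of ZNF468 and ZNF813 were 71.6% identical. ZNF468 and ZNF160 shared 57.3%, while ZNF350 shared 50.3% with ZNF761. Among all 435 pairs of member windows identity ran from 47.0% to 86.0% with a median of 53.4%. The closest pair was ZNF701 and ZNF845, neither of them called. The members thus include a subset with closely related start regions and others no closer to each other than the typical pair.

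The libraries held between 13721281 and 23969024 reads assigned to genes, and MCM7 siRNA replicate 1 was the shallowest. MCM7 had 509, 594 and 662 reads with control siRNA and 48, 68 and 76 reads with MCM7 siRNA, and fell to 11.4% of control (edgeR adjusted p = 1.42e-19). All 10 fibroblast markers examined exceeded 1 CPM (reads per 1000000 in a library, after scaling), while the summed level of markers of epithelial, immune, endothelial, muscle and glial cells stayed at or below 1.32 CPM for each type in every library. In bulk RNA, fewer cells of a type and less RNA per cell cannot be told apart.

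Members of the cluster were weakly expressed. By deposited RPKM, which scales reads by gene length and library, 4 members exceeded 1 RPKM on average with control siRNA, 29 lay between 0.1 and 1 RPKM and 7 were below 0.1 RPKM. The median of the 34 members that passed the filter on low counts was 0.477 RPKM, beside 3.11 RPKM for all tested genes. ZNF160 ranked first at 2.0 RPKM, ahead of ZNF415 at 1.70 RPKM and ZNF649 at 1.38 RPKM. The same 3 genes led in the same order when reads were divided by the exon length of GENCODE 44. In CPM, summed over the 40 members, the libraries stood at 113, 115 and 117 CPM with control siRNA and at 86.2, 81.0 and 80.5 CPM with MCM7 siRNA. The groups did not overlap in this sum. Without ZNF468 and ZNF28 the sums were 108, 109 and 110 CPM against 84.3, 78.9 and 78.3 CPM, again without overlap. The other members called lower stay in that sum, and the choice of members used these values, so both sums are descriptions.

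Of the 34 members tested, 12 were called lower with MCM7 siRNA by edgeR (adjusted p under 0.05 over all tested genes), 0 were called higher and 22 were not called. Over all 14667 tested genes, 6.65% were called lower and 6.18% higher. Because the members were chosen on this contrast, nothing is read from the difference. At an unadjusted edgeR p under 0.05, 19 members were lower and 0 higher, beside 1948 and 1882 of all 14667 tested genes. DESeq2 called 10 members lower and 0 higher while giving no adjusted p for 14 members. The 10 passed both tools, beside 4.47% of all tested genes passing both in that direction and 5.29% of the 12392 genes that DESeq2 adjusted. The log2 fold change was below 0 in 31 of the 34 (91.2%), beside 50.7% of all tested genes. Its median was -0.55 beside -0.003 over all tested genes. In 18 members the 3 knockdown libraries all lay below the 3 controls, and in 2 members, ZNF480 and the pseudogene ZNF137P, they all lay above. Across all tested genes, such separation occurred in 15.0% downwards and 14.6% upwards. ZNF137P passed the filter on low counts only through the MCM7 siRNA libraries, and ZNF320, one of the 18, only through the controls. For both, the filter built in part of the separation.

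**Figure D1:**
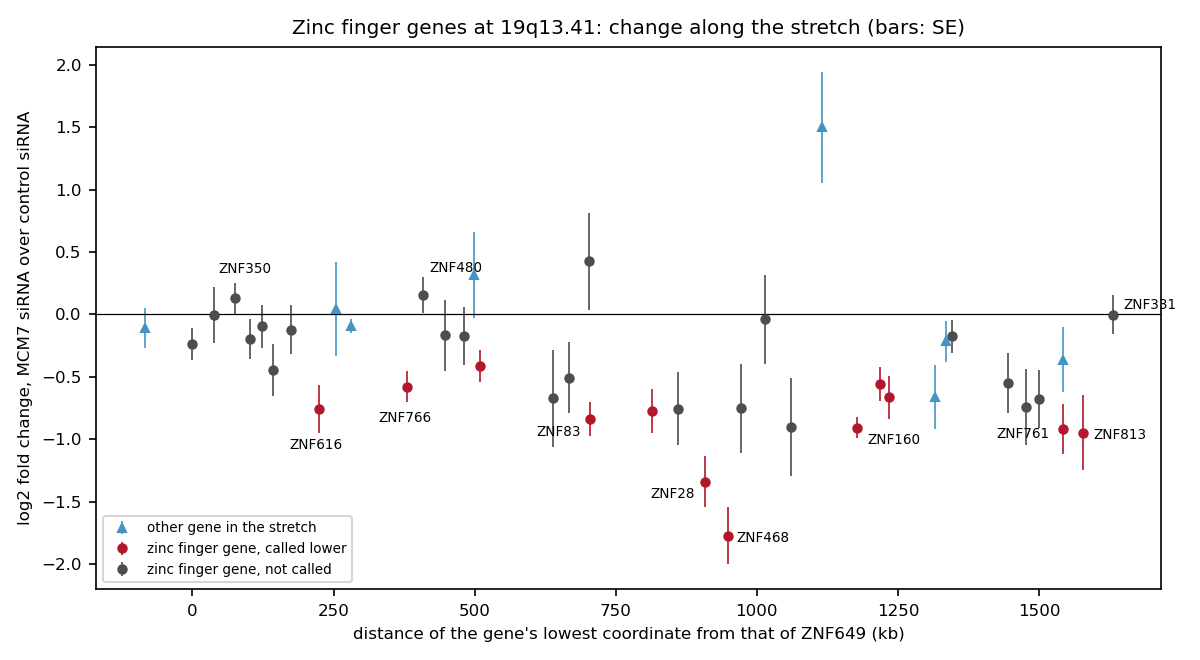
Log2 fold change (MCM7 siRNA over control siRNA, y axis) of each tested gene against its distance along the stretch from the lowest coordinate of ZNF649 (kb, x axis), with SE bars. Red circles are the 12 members called lower by edgeR, dark circles the 22 not called, and blue triangles the 8 other tested genes of the stretch. ZNF468 and ZNF28 lie lowest at -1.77 and -1.34, while the 7 members at the left lie between -0.44 (ZNF432) and 0.13 (ZNF350) and ZNF331 at the right lies at -0.003.

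ZNF468 and ZNF28 lie next to each other on the minus strand, with their transcription starts almost at the same position, and they had the largest decreases among the 34 tested members. ZNF468 (ENSG00000204604, chr19:52838010-52857649) had 48, 62 and 74 reads with control siRNA and 7, 21 and 24 reads with MCM7 siRNA. Scaled to library size this was 2.57, 3.09 and 3.49 CPM against 0.512, 1.03 and 1.00 CPM. MCM7 siRNA replicate 1, the shallowest library, was the lowest, and all 3 MCM7 siRNA libraries lay well under the controls. The mean was 3.05 ± 0.462 CPM in controls and 0.848 ± 0.291 CPM after knockdown (SD, n = 3), a log2 fold change of -1.77 ± 0.23 SE, and stayed between -1.90 and -1.59 when any 1 library was left out.

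ZNF28 (ENSG00000198538, chr19:52797408-52857600) had 56, 66 and 59 reads with control siRNA and 20, 22 and 27 reads with MCM7 siRNA, or 3.00, 3.29 and 2.79 CPM against 1.46, 1.08 and 1.13 CPM. The groups were clearly apart here too. The mean was 3.03 ± 0.253 CPM in controls and 1.22 ± 0.209 CPM after knockdown (SD, n = 3), a log2 fold change of -1.34 ± 0.20 SE. The 2 genes overlap on the same strand, but shared only 0.49% of the exon bases of ZNF28 and 0.55% of those of ZNF468. Of the 50-base windows in their exons, 91.1% and 90.0% were found once in the genome, so some reads of both genes could not be placed uniquely.

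Towards lower coordinates from this pair, ZNF83 and ZNF611 lie on the same strand. ZNF83 measured 7.18, 6.88 and 6.09 CPM with control siRNA and 4.39, 3.14 and 3.89 CPM with MCM7 siRNA, a log2 fold change of -0.84 ± 0.14 SE. ZNF611, a KRAB zinc finger protein known to bind SVA retrotransposons, measured 4.34, 4.24 and 3.31 CPM against 2.78, 2.45 and 1.88 CPM (-0.77 ± 0.18 SE). Neither gene overlapped between groups. In the whole run from ZNF83 to ZNF468, all 5 members were tested and 4 were called lower. The fifth, ZNF600, separated between the groups as well (1.23, 1.05 and 1.46 CPM against 0.66, 0.49 and 1.00 CPM) but was not called (-0.75 ± 0.29 SE). Without MCM7 siRNA replicate 3 it was called, at -1.16. The coding sequences of ZNF600 and ZNF611 were the most similar of the cluster when gaps counted as differences (84.2% identical), while over aligned bases alone ZNF28 and ZNF468 were closest (95.1%, beside 94.6% for ZNF600 and ZNF611).

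ZNF160, the most strongly expressed member, gave the most precise decrease. It had 309, 346 and 371 reads with control siRNA and 119, 188 and 224 reads with MCM7 siRNA, and in CPM 16.6, 17.2 and 17.5 against 8.71, 9.21 and 9.37. Within each group the libraries nearly coincided, and the means were 17.1 ± 0.491 and 9.09 ± 0.346 CPM (SD, n = 3), a log2 fold change of -0.91 ± 0.09 SE, with values from -0.93 to -0.88 when any 1 library was left out. Its exon windows were 96.1% unique.

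ZNF415 and ZNF347 follow ZNF160 on the minus strand. ZNF415 measured 6.11, 6.43 and 6.85 CPM with control siRNA and 4.10, 3.67 and 5.23 CPM with MCM7 siRNA (log2 fold change -0.56 ± 0.13 SE), with MCM7 siRNA replicate 3 nearest to the controls. ZNF347 measured 3.27, 3.54 and 4.25 CPM against 2.71, 2.11 and 2.30 CPM (-0.66 ± 0.17 SE). For both genes the highest library after knockdown lay under the lowest control. The call of ZNF347 was lost without control siRNA replicate 3 (-0.55) and after thinning the libraries to the smallest (-0.44).

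At the far end, the plus-strand genes ZNF845 to ZNF813 all had log2 fold changes below 0, between -0.95 and -0.55, and 2 of the 5 were called lower. ZNF761 measured 3.22, 2.54 and 3.40 CPM with control siRNA and 2.19, 1.42 and 1.42 CPM with MCM7 siRNA (-0.92 ± 0.20 SE). ZNF813 rested on few reads, with 27, 16 and 29 against 9, 14 and 13, or 1.45, 0.798 and 1.37 CPM against 0.658, 0.686 and 0.544 CPM (-0.95 ± 0.30 SE). Control siRNA replicate 2 came close to the MCM7 siRNA libraries for this gene. Its call was lost without control siRNA replicate 1 (-0.80) or 3 (-0.83) and without MCM7 siRNA replicate 1 (-0.97), 2 (-1.03) or 3 (-0.83), with limma at a pseudocount of 0.1 (-0.79), and DESeq2 gave it no adjusted p. ZNF845, ZNF525 and ZNF765 were not called, at -0.55 ± 0.24, -0.74 ± 0.31 and -0.68 ± 0.23 (log2 fold change ± SE).

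The called genes nearest to the low-coordinate edge were ZNF616, ZNF766 and ZNF528. ZNF616 measured 2.36, 3.09 and 2.79 CPM with control siRNA and 1.76, 1.67 and 1.51 CPM with MCM7 siRNA (log2 fold change -0.76 ± 0.19 SE). ZNF766 measured 6.86, 6.63 and 6.61 CPM against 4.97, 4.56 and 4.10 CPM (-0.58 ± 0.12 SE). In neither did the groups overlap. ZNF528 measured 5.79, 6.93 and 7.04 CPM against 5.12, 5.29 and 4.56 CPM (-0.41 ± 0.13 SE), the smallest change called, with control siRNA replicate 1 close to the MCM7 siRNA libraries. ZNF528 was not called by DESeq2 (-0.41), after thinning (-0.30), or without control siRNA replicate 2 (-0.38) or 3 (-0.36) or MCM7 siRNA replicate 1 (-0.43) or 3 (-0.34). ZNF616 lost its call after thinning (-0.49) and without control siRNA replicate 2 (-0.67).

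**Figure D2:**
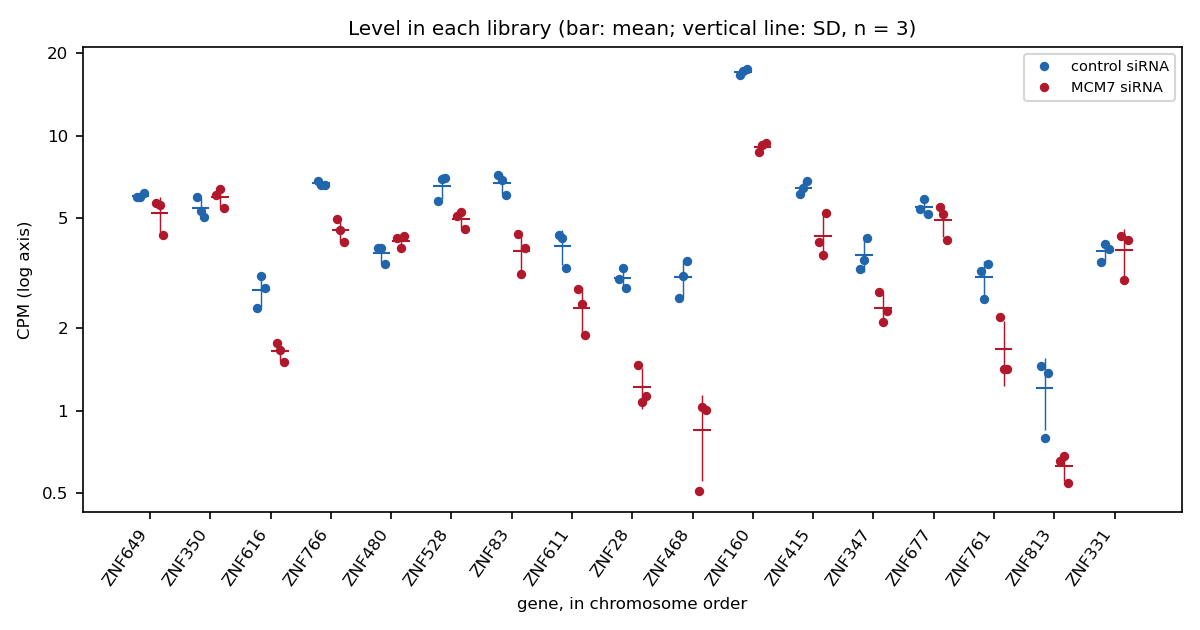
Level of the 12 called members and of 5 members not called (ZNF649, ZNF350, ZNF480, ZNF677 and ZNF331) in each library, in CPM on a log axis, in chromosome order; blue points are control siRNA and red points MCM7 siRNA, horizontal bars are means and vertical lines SD (n = 3). ZNF160 is the highest in both groups (17.1 and 9.09 CPM on average), and ZNF468 shows the widest gap.

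At both edges of the stretch, outside ZNF616 to ZNF813, no member was called. ZNF616 and ZNF813 were themselves called lower, so these bounds coincide with calls of this same contrast. The difference between edges and middle is therefore a description and was not tested. The 7 members before ZNF616 (ZNF649, ZNF613, ZNF350, ZNF615, ZNF614, ZNF432 and ZNF841) were all tested, 0 were called lower by edgeR, and their median log2 fold change was -0.12, with values from -0.44 (ZNF432, whose groups did not overlap) to 0.13 (ZNF350). ZNF649, which represses serum-response and AP-1 reporters, measured 6.00, 5.98 and 6.19 CPM with control siRNA and 5.71, 5.58 and 4.35 CPM with MCM7 siRNA. Its groups did not overlap, but MCM7 siRNA replicate 3 alone lay far below the rest, and the log2 fold change of -0.24 ± 0.13 SE was not called. ZNF350, a co-repressor partner of BRCA1 also named ZBRK1, measured 6.00, 5.33 and 5.05 CPM against 6.07, 6.42 and 5.48 CPM, with overlapping groups. ZNF331, an imprinted gene and the only member beyond ZNF813, measured 3.49, 4.04 and 3.87 CPM against 4.32, 2.99 and 4.18 CPM, again with overlap.

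Between the edges, 32 members lie from ZNF616 to ZNF813, of which 26 were tested. In 24 of these the log2 fold change was below 0, beside 50.7% of all tested genes, and the median was -0.67. Inside this run the values were uneven. The 4 plus-strand neighbours from ZNF480 to ZNF528 had a median of -0.17, and in ZNF480 the MCM7 siRNA libraries were slightly higher (3.91, 3.89 and 3.40 CPM against 4.24, 3.92 and 4.31 CPM). ZNF677, at -0.17 ± 0.13 SE, and ZNF888, at -0.04 ± 0.36 SE, were not called either. ZNF808, whose loss causes pancreatic agenesis in people, was at -0.67 ± 0.39 SE and not called, but was called without MCM7 siRNA replicate 3 (-1.52), since its level in that library (0.79 CPM) was far above those in the other two (0.22 and 0.29 CPM). ZNF816, ZNF320 and ZNF701 were at -0.91 ± 0.39, -0.75 ± 0.36 and -0.51 ± 0.29 (log2 fold change ± SE) and were not called, each on at most 35 reads in any library. The remaining tested members, ZNF610, ZNF880 and ZNF137P, were at -0.17, -0.17 and 0.42.

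The 6 members that did not pass the filter were ZNF836, ZNF534, ZNF578, ZNF321P, ZNF702P and ZNF665. ZNF836 had 7, 4 and 14 reads with control siRNA and 8, 5 and 9 with MCM7 siRNA, ZNF578 had 7, 8 and 9 against 1, 8 and 6, and ZNF665 had 3, 12 and 5 against 2, 5 and 0. ZNF534 and ZNF702P had at most 2 reads in any library. ZNF321P had 0 reads in all 6 libraries, and 3 reads, the limit a count of 0 allows, correspond to between 0.125 and 0.219 CPM by library, covering counting error only. In GENCODE 44 the exons of ZNF321P shared 40.2% of their bases with the read-through transcript ZNF816-ZNF321P. Reads there may not have been assigned to ZNF321P, but the counts used Ensembl annotation 83, in which the sharing was not examined.

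Calls were found on both strands, in 4 of 15 tested plus-strand members and 8 of 19 tested minus-strand members. Other genes lie among the zinc finger genes. Of 64 such annotated genes, 56 were in the table and 8 were tested, of which 0 were called lower and 1 higher by edgeR. The shares of all tested genes were 6.65% and 6.18%, so nothing is read from counts this small. PPP2R1A, the scaffold subunit of protein phosphatase 2A, lies between ZNF836 and ZNF766 and stood at 110.1 ± 3.07 CPM in controls and 103.1 ± 10.4 CPM after knockdown (SD, n = 3), with a log2 fold change of -0.09 ± 0.06 SE and an adjusted p of 0.335 in edgeR. The pseudogene AC010328.2 was called 2.82-fold higher (edgeR adjusted p = 0.0236) on 5, 1 and 8 reads against 8, 14 and 17. DESeq2 gave it no adjusted p. This pseudogene passed the filter on low counts only through the MCM7 siRNA libraries, so part of its difference was built in. The others were ZNF577, a zinc finger gene that reaches into ZNF649 (-0.11 ± 0.16), and RPL37P23 (0.05 ± 0.37), ZNF528-AS1 (0.32 ± 0.34), AC092070.2 (-0.66 ± 0.26), named ZNF818P in GENCODE 44 and thus itself a zinc finger pseudogene that was not among the members, NDUFV2P1 (-0.22 ± 0.16) and TPM3P9 (-0.36 ± 0.26), in log2 fold change ± SE, none of them called.

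Zinc finger genes that are not members were set beside the cluster. A second large cluster lies on the short arm of the same chromosome at 19p12. Of its 34 genes in the list used, 17 were tested, and edgeR called 0 lower and 0 higher. At an unadjusted p under 0.05 there was 1 in each direction, beside 1948 lower and 1882 higher of all 14667 tested genes. DESeq2 also called 0, and gave no adjusted p for 13 of the 17. Their median log2 fold change was 0.08. The summed level of the 34 genes ranged from 19.8 to 22.9 CPM with control siRNA and from 20.3 to 21.8 CPM with MCM7 siRNA. The 40 members of 19q13.41 summed to between 113 and 117 CPM with control siRNA, so calls at 19p12 had fewer reads to rest on. Of the 373 other tested zinc finger genes, which include ZNF577 at the edge of the stretch, 16 were called lower and 2 higher, with a median of -0.03 and summed levels of 3222 to 3245 CPM against 3187 to 3242 CPM. The count called lower there was 8 without control siRNA replicate 2 or 3, 9 without control siRNA replicate 1 and 10 without MCM7 siRNA replicate 2, and the count called higher was 13 without MCM7 siRNA replicate 3 and 1 without control siRNA replicate 1. The main fit called 4.29% of these 373 genes lower and 0.54% higher, beside 6.65% and 6.18% of all tested genes. The difference between the clusters was not tested, since the members of 19q13.41 were chosen on this contrast.

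**Figure D3:**
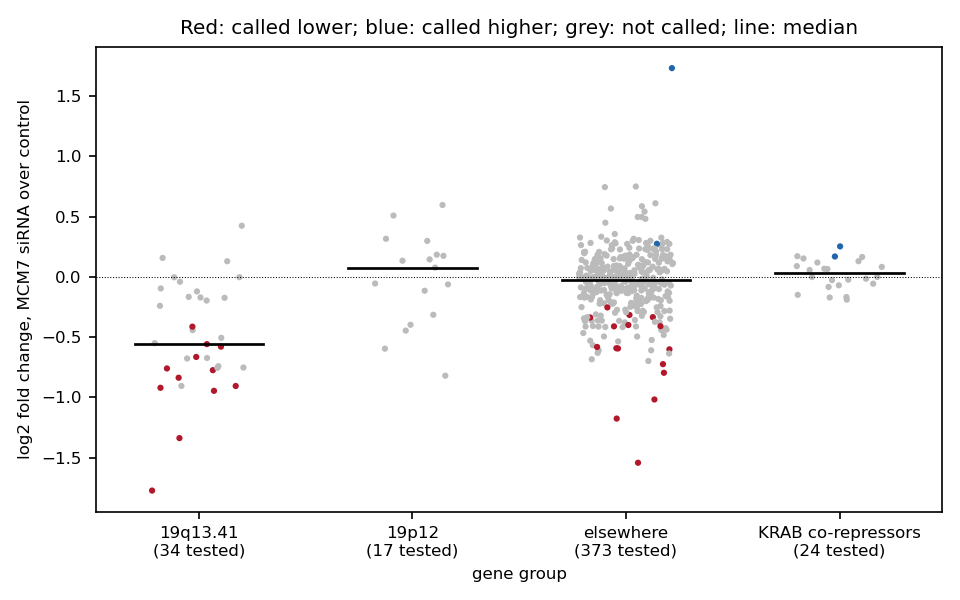
Log2 fold change (y axis) of each tested gene, 1 point a gene with random horizontal spread, for the 19q13.41 cluster (34 tested), the 19p12 cluster (17), other zinc finger genes (373) and genes of the KRAB co-repressor machinery (24); red points were called lower and blue points higher by edgeR, and the black line is the median. The median is -0.55 for 19q13.41, which was chosen on these values, and 0.08, -0.03 and 0.03 for the other groups.

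RNA of the genes that encode the partners of KRAB zinc finger proteins was also measured. All 24 genes of that list were tested. By edgeR, 0 were called lower (3 at an unadjusted p under 0.05, 0 by DESeq2). In the other direction 2 were called higher (5 at an unadjusted edgeR p under 0.05, 1 by DESeq2), or 8.33%. At an unadjusted edgeR p under 0.05, 1948 of all 14667 tested genes were lower and 1882 higher. The shares of all tested genes called were 6.65% lower and 6.18% higher. With 24 genes the counts lie near these shares, and nothing is read from them. TRIM28, which binds the KRAB box, stood at 87.1 ± 4.76 CPM in controls and 78.7 ± 4.37 CPM after knockdown (SD, n = 3), with a log2 fold change of -0.15 ± 0.06 SE and an adjusted p of 0.0772 in edgeR. DNMT1, the maintenance DNA methyltransferase, rose from 45.4 ± 0.441 to 54.1 ± 2.51 CPM (0.25 ± 0.06 SE, edgeR adjusted p = 0.00324). CBX5, which encodes HP1 alpha, rose by 0.17 ± 0.06 SE (edgeR adjusted p = 0.0473), a call that DESeq2 did not make (adjusted p = 0.0854). Leaving out 1 library gave between 1 and 3 called higher. The number called lower became 1 without MCM7 siRNA replicate 2 and 2 without MCM7 siRNA replicate 3.

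Sequence features that the choice of members did not use were then compared across the cluster. The run AGGCCCCGCC occurred on either strand in the start window of 16 of 30 members (53.3%), beside 3.13% of all 27305 genes with a window. At 19p12 it occurred in 16 of 26 windows (61.5%), and 8 of those 16 genes were tested. CCAGGCCTGG, which reads the same on both strands, occurred in 10 of 30 members (33.3%), beside 0.37% of all genes and 0 of 26 at 19p12. ATCCGCTTCC occurred in 11 of 30 members (36.7%), in 38 of the 27305 windows of all genes (0.139%), in 0 of 26 at 19p12 and in 1 of 370 of the other zinc finger genes. Among the 9827 tested genes with a window, AGGCCCCGCC, CCAGGCCTGG and ATCCGCTTCC occurred in 5.70%, 0.54% and 0.254%. The median G + C content of the windows was 65.3% for tested genes, 58.3% for all genes and 63.3% for the members. These runs were picked by counting words of 10 letters in the windows of the members themselves, as the most common word and the pair with the highest share relative to all genes, so their excess over all genes follows in part from the picking. A match is a description and not a binding site.

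Carriers of ATCCGCTTCC were ZNF808, ZNF701, ZNF83, ZNF611, ZNF320, ZNF816, ZNF347, ZNF677, ZNF845, ZNF761 and ZNF813. All 11 were tested and 5 were called lower, beside 6 of 16 tested members whose window lacked the run. Their median log2 fold change was -0.75 against -0.43. Among all tested genes with a window, 25 carried the run, these 11 included, and 6 of the 25 were called lower. Of the 9802 without the run, 738 were called lower. CCAGGCCTGG was carried by ZNF468 and by ZNF808, ZNF701, ZNF611, ZNF320, ZNF845, ZNF525, ZNF765, ZNF761 and ZNF813. Of these, 4 were called lower, beside 7 of 17 tested members whose window lacked it. Among all tested genes with a window, 12 of 53 carriers and 732 of 9774 others were called lower. Start windows of pairs that both carried ATCCGCTTCC were 62.4% identical in the median, against 52.0% for pairs in which neither did. The word of 8 letters found in most members, CCCCGCCC, can overlap AGGCCCCGCC and occurred in 21 of 30. It was in 10 of the 11 called members with a window and in 9 of 16 tested and not called. Among all tested genes with a window 38.9% held it, with a median log2 fold change of -0.02 with the word and 0.01 without.

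The G + C content of the start window ran from 51.3% to 72.7% among the members. Over the 27 tested members with a window, the log2 fold change and this content had Pearson's r = -0.53 and Spearman's rho = -0.59. Over all 34 tested members, the log2 fold change and the share of exon windows found once in the genome had r = 0.36 and rho = 0.52, so that members with more repeated sequence had lower values. The number of zinc fingers had r = -0.15 (33 members) and the control level in CPM had r = -0.11 (34 members). These are descriptions across members that share libraries, ancestry and base composition, and they were computed on values that the choice of members used. The share of unique windows ran from 79.1% in ZNF888 to 99.2% in ZNF350, with a median of 92.7% in the called members and 94.4% in those not called.

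**Figure D4:**
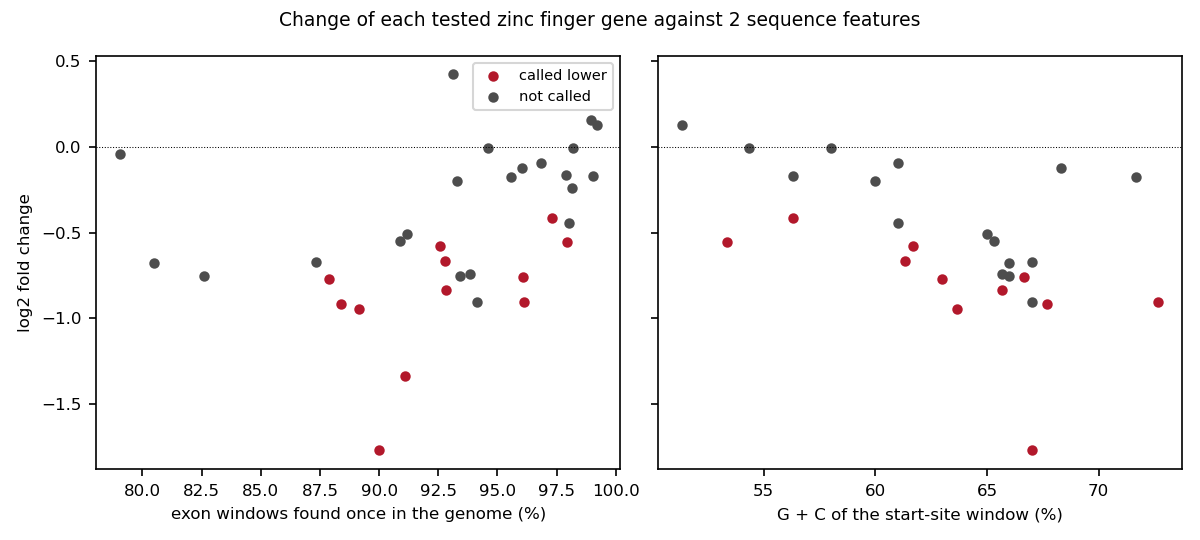
Log2 fold change of each tested member (y axis) against the share of its 50-base exon windows found once in the genome (left, 34 members) and the G + C content of its start window (right, 27 members), both in percent; red points were called lower. ZNF350 lies at the unique end (99.2%) and at the low G + C end (51.3%) and is the only one of the 27 members on the right with a value above 0.

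The letters GAGATGA, a run taken from earlier counts of short words in 3′ UTRs of these data, were present in the 3′ UTR of 8 of 37 coding members (21.6%), beside 14.8% of 12052 tested coding genes. The carriers were ZNF649, ZNF614, ZNF836, ZNF766, ZNF468, ZNF320, ZNF845 and ZNF813. It was carried there by 3 of the 12 called members and by 4 of the 21 coding members tested and not called. In the coding sequence the run was present in 3 of 37 members, ZNF160, ZNF415 and ZNF347, beside 21.1% of all tested coding genes. All 3 were called lower, and 0 of the 21 members not called carried it. These 3 genes are direct neighbours, and the coding sequences of ZNF160 and ZNF347 are closest to each other (77.4% identical). Both the run and the members were chosen with these data known, so the split is a description and was not tested.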

How the data were processed

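Libraries were made from poly(A)+ RNA with a kit that keeps strand and were sequenced as single reads of 50 bases. Per the submitters' processing notes and the study's methods, bcl2fastq 1.8.4, TopHat2 2.1.0 (unique hits on annotated loci), featureCounts 1.5.0 (by strand) and GRCh38 with Ensembl annotation 83 were used. Unique mapping removes reads from repeated finger sequence. The authors deposited raw counts per gene, RPM (counts per 1000000 reads assigned to genes) and RPKM (RPM per kilobase).

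The members, lists and tests were chosen with earlier results of these data known. Counts were fitted in edgeR 4.0.16 by its quasi-likelihood method (TMM factors, filterByExpr, two-sided, Benjamini-Hochberg over 14667 genes, threshold 0.05). CPM values use TMM factors of 0.991 to 1.016. Alternatives used DESeq2 1.42.0, limma 3.58.1 on log2(RPM + 0.5) or log2(RPM + 0.1), other scalings and filters, thinning, a replicate block and leaving out each library. No pair of libraries agreed within sampling noise. Chi-square per degree of freedom, which grows with disagreement, was 2.73 to 4.05 between controls. Between MCM7 siRNA libraries it was 3.27, 3.36 and, for replicates 2 and 3, 8.82. Of the pairs within a group, MCM7 siRNA replicates 2 and 3 were thus the least alike. Pairs across groups ran from 7.53 to 15.9, a range that includes the value of that pair. The measure also grows with depth, and MCM7 siRNA replicate 1 was the shallowest library. On simulated counts, edgeR called 30% of genes changed 1.2-fold, 66% at 1.5-fold and 93.9% at 2-fold. The changed genes were drawn from all tested genes (median 3.11 RPKM in controls), and tested members are weaker (median 0.477 RPKM). These rates therefore do not give the sensitivity for the members.

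Values in every library are given for the called members and the 3 with the highest RPKM. Values of ZNF350, ZNF331, ZNF480, ZNF600, ZNF808 and the untested members were added after they were seen. Start windows come from RefSeq, and gene models and coding sequences from GENCODE 44. Exon windows of 50 bases were searched on both strands of GRCh38. Identity is the share of identical columns in a global alignment, and word counts covered both strands of start windows.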

Additional observations from a re-analysis of the deposited data

How the results depend on the processing

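The members called lower numbered 12 with other size factors, with library totals only, without a filter, with limma at a pseudocount of 0.5 and with the replicate number as a block. Members called lower numbered 11 with limma at 0.1 (5.98% of all tested genes) and 10 with DESeq2 or with both tools (4.47% each). They numbered 10 at a threshold of 0.01, 9 after thinning (5.82%) and 9 to 12 when 1 library was left out (3.95% to 7.97%). With a mean of at least 50 reads per library, 14 members were tested, since most members have fewer reads. Of these 7 were called lower, beside 8.25% of all tested genes, and the median was -0.32. The median otherwise stayed between -0.59 and -0.37, and between -0.59 and -0.44 when 1 library was left out. No log2 fold change of a member given here changed sign with a call.

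The other zinc finger genes called lower (16) numbered 6 with DESeq2, both tools or the 0.01 threshold and 8 to 14 without 1 library. Those called higher (2) numbered 4 with DESeq2 size factors or the replicate block, 6 with library totals, at least 50 reads or limma at 0.1, 5 without a filter, 7 with limma at 0.5, 1 with DESeq2 or both tools, 0 at 0.01 and 1 to 13 without 1 library. Co-repressor genes called lower (0) numbered 1 without a filter or with the replicate block and 0 to 2 without 1 library. Those called higher (2) numbered 1 with DESeq2, thinning, both tools or the 0.01 threshold and 1 to 3 without 1 library. All called genes (1881) numbered 1030 at 0.01 and 1151 to 2265 without 1 library. The cause of these shifts was not tested.

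Libraries with the same replicate number did not deviate together (correlations of -0.01, -0.03 and -0.02), so the numbers were not taken as pairs, and the block left the 12 calls among the members in place. Depth limits the weakest members, of which 6 did not pass the filter on low counts.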
